A study of Mus musculus with 3 samples.

Results

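The genes *Tgfbi*, *Smad7*, *Skil*, *Ltbp2*, *Postn* and *Tnc* were taken by name from the count tables of 3 single-cell RNA-seq libraries as response genes of TGFβ signaling. All 6 were listed in each table, among 25936 genes in the D6 PM library and 27755 in each of the D10 culture and E14.5 tail libraries. Mouse embryonic stem cells carrying the *ScxGFP* tendon reporter first formed embryoid bodies with LDN-193189 (a BMP inhibitor, 500 nM) and were then given CHIR (a Wnt agonist, 5 µM) with LDN-193189 up to D6, the paraxial mesoderm (PM) stage, with no TGFβ1 added. The D10 culture cells had then been grown with TGFβ1 (10 ng/mL), FGF2 (10 ng/mL) and SAG (a Hedgehog agonist, 100 nM) from D6 to D10. The labels call the D6 cells embryoid bodies and the D10 cells a monolayer. The third library held tail cells of *ScxGFP* mouse embryos at E14.5, a native tissue with developing tendon and cartilage; the number of embryos pooled is not given in the sources used here. All 3 groups carried the reporter, and the stem cells had been kept on mouse embryonic fibroblast feeders before differentiation. TGFβ1, FGF2, SAG, the end of CHIR and LDN-193189 treatment and the days in culture all separated D10 from D6, so their parts cannot be told apart.

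TGFβ ligands bind a pair of serine/threonine kinase receptors that phosphorylate Smad2 and Smad3, which then act with Smad4 on target genes. Some targets feed back on the pathway: Smad7 blocks the activated receptor and marks it for degradation, and Skil (SnoN) is a co-repressor that binds the Smad complex. Others are extracellular matrix genes, and TGFβ signaling is known to be needed for tendon formation in the mouse embryo and to induce the tendon transcription factor *Scx*.

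There was 1 library per group, so no test between groups was possible and no p-value is given. Levels are unique molecular identifiers (UMIs) of a gene per 1000000 UMIs of the group (CPM), summed over the cells of each cluster as coded by the authors. The 95% intervals are exact and cover counting error only, not the spread between cultures or embryos. The D6 PM, D10 culture and E14.5 tail libraries held 5954, 7821 and 2052 cells with medians of 8171, 5622 and 13512 UMIs per cell. Barcodes shared between libraries numbered from 3 to 10 per pair. A gene was tested where a UMI was found in at least 10% of cells of either group, and called where its CPM differed at least 2-fold. A member that passed this filter only through the group where it was high had to differ.

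Clusters were described by their markers. In the D10 culture, cluster 0 (2964 cells) and cluster 1 (1353 cells) carried tendon and fibroblast genes, cluster 1 being led by cell cycle genes such as *Mxd3*, *Mki67* and *Aurkb*, cluster 2 (855 cells) was led by the cartilage genes *Acan*, *Col9a1*, *Matn4* and *Col2a1*, cluster 3 (53 cells) by *Mmp3*, *S100a4* and *Grem1*, and cluster 4 (1088 cells) by the pluripotency-associated genes *Dppa3*, *Fbxo15* and *Dnmt3l*. Culture and tail cells had been integrated by the authors, and a cluster number stands for 1 cluster in both. The cycling markers *Top2a*, *Mki67* and *Cenpf* had summed levels of 3307 CPM (culture) and 3327 CPM (tail) among cluster 1 cells, and 413 and 79.5 CPM among cluster 0 cells. The D6 PM cells were clustered alone: cluster 3 (700 cells) was led by the mesoderm genes *Zic4*, *Foxc2* and *Aldh1a2*, cluster 1 (1038 cells) by *Gdf3*, *Tcl1* and *Dppa3*, and the cluster coded 5 (662 cells) by *Col5a3*, *Ctsk*, *Lox*, *Inhba* and *Grem1*. The summed level of 6 fibroblast genes (*Col1a1*, *Col3a1*, *Dcn*, *Lum*, *Pdgfra*, *Thy1*) was 5774 CPM in D6 code 5, 1052 CPM in D6 cluster 3, 6842 CPM in D10 cluster 0 and 4227 CPM in D10 cluster 3. *Thy1* was at 37.1 CPM in D6 code 5 and 100 CPM in D10 cluster 3, against 0.784 CPM in D10 cluster 0; whether these cells derive from the feeders was not tested.

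The matrix genes *Postn*, *Tnc* and *Tgfbi* were higher in the D10 culture than in D6 PM cells, whereas *Smad7*, *Skil* and *Ltbp2* lay within 2-fold over whole libraries. *Postn* encodes periostin, a secreted matrix protein of collagen-rich tissues including tendon. It was at 71.3 CPM in D6 PM, 1204 CPM in the D10 culture and 236 CPM in the tail. The D10 to D6 ratio was 16.9 (95% interval 16.3 to 17.5). *Tnc* encodes tenascin-C, a matrix glycoprotein of developing tendon and cartilage. It was at 15.3 CPM in D6 PM, 235 CPM in the D10 culture and 81.3 CPM in the tail, a D10 to D6 ratio of 15.4 (14.3 to 16.6). *Tgfbi* encodes a secreted adhesion protein first found as a gene induced by TGFβ. It was at 22.0, 137 and 85.1 CPM in the same order, and its D10 to D6 ratio was 6.20 (5.83 to 6.61). Of 8845 genes tested over whole libraries, 7.79% were called higher and 5.86% lower at D10; among the 5 members tested 3 were higher and none lower. All 3 passed the filter only through the D10 library, where they were high, with a UMI in 8.55% of D6 cells for *Tgfbi*, 8.23% for *Postn* and 5.48% for *Tnc*, so nothing is read from their count. In sums over whole libraries, fewer cells of a type and less RNA per cell cannot be told apart. The reporter's gene *Scx* had a ratio of 69.9 in the same comparison.

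The feedback genes differed less over whole libraries. *Skil* was at 100 CPM in D6 PM, 179 CPM in the D10 culture and 63.3 CPM in the tail, with a D10 to D6 ratio of 1.78 (1.72 to 1.84). *Smad7* was at 78.8, 68.9 and 78.5 CPM in the same order, with a ratio of 0.875 (0.836 to 0.915), which turned to 1.04 when each cell counted equally. *Ltbp2*, a member of the latent TGFβ binding protein family found on fibrillin microfibrils, was low in all 3 libraries at 3.55, 4.51 and 1.72 CPM. It was found in too few cells to be tested, and its ratio was 1.27 (1.05 to 1.55).

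**Figure D1:**
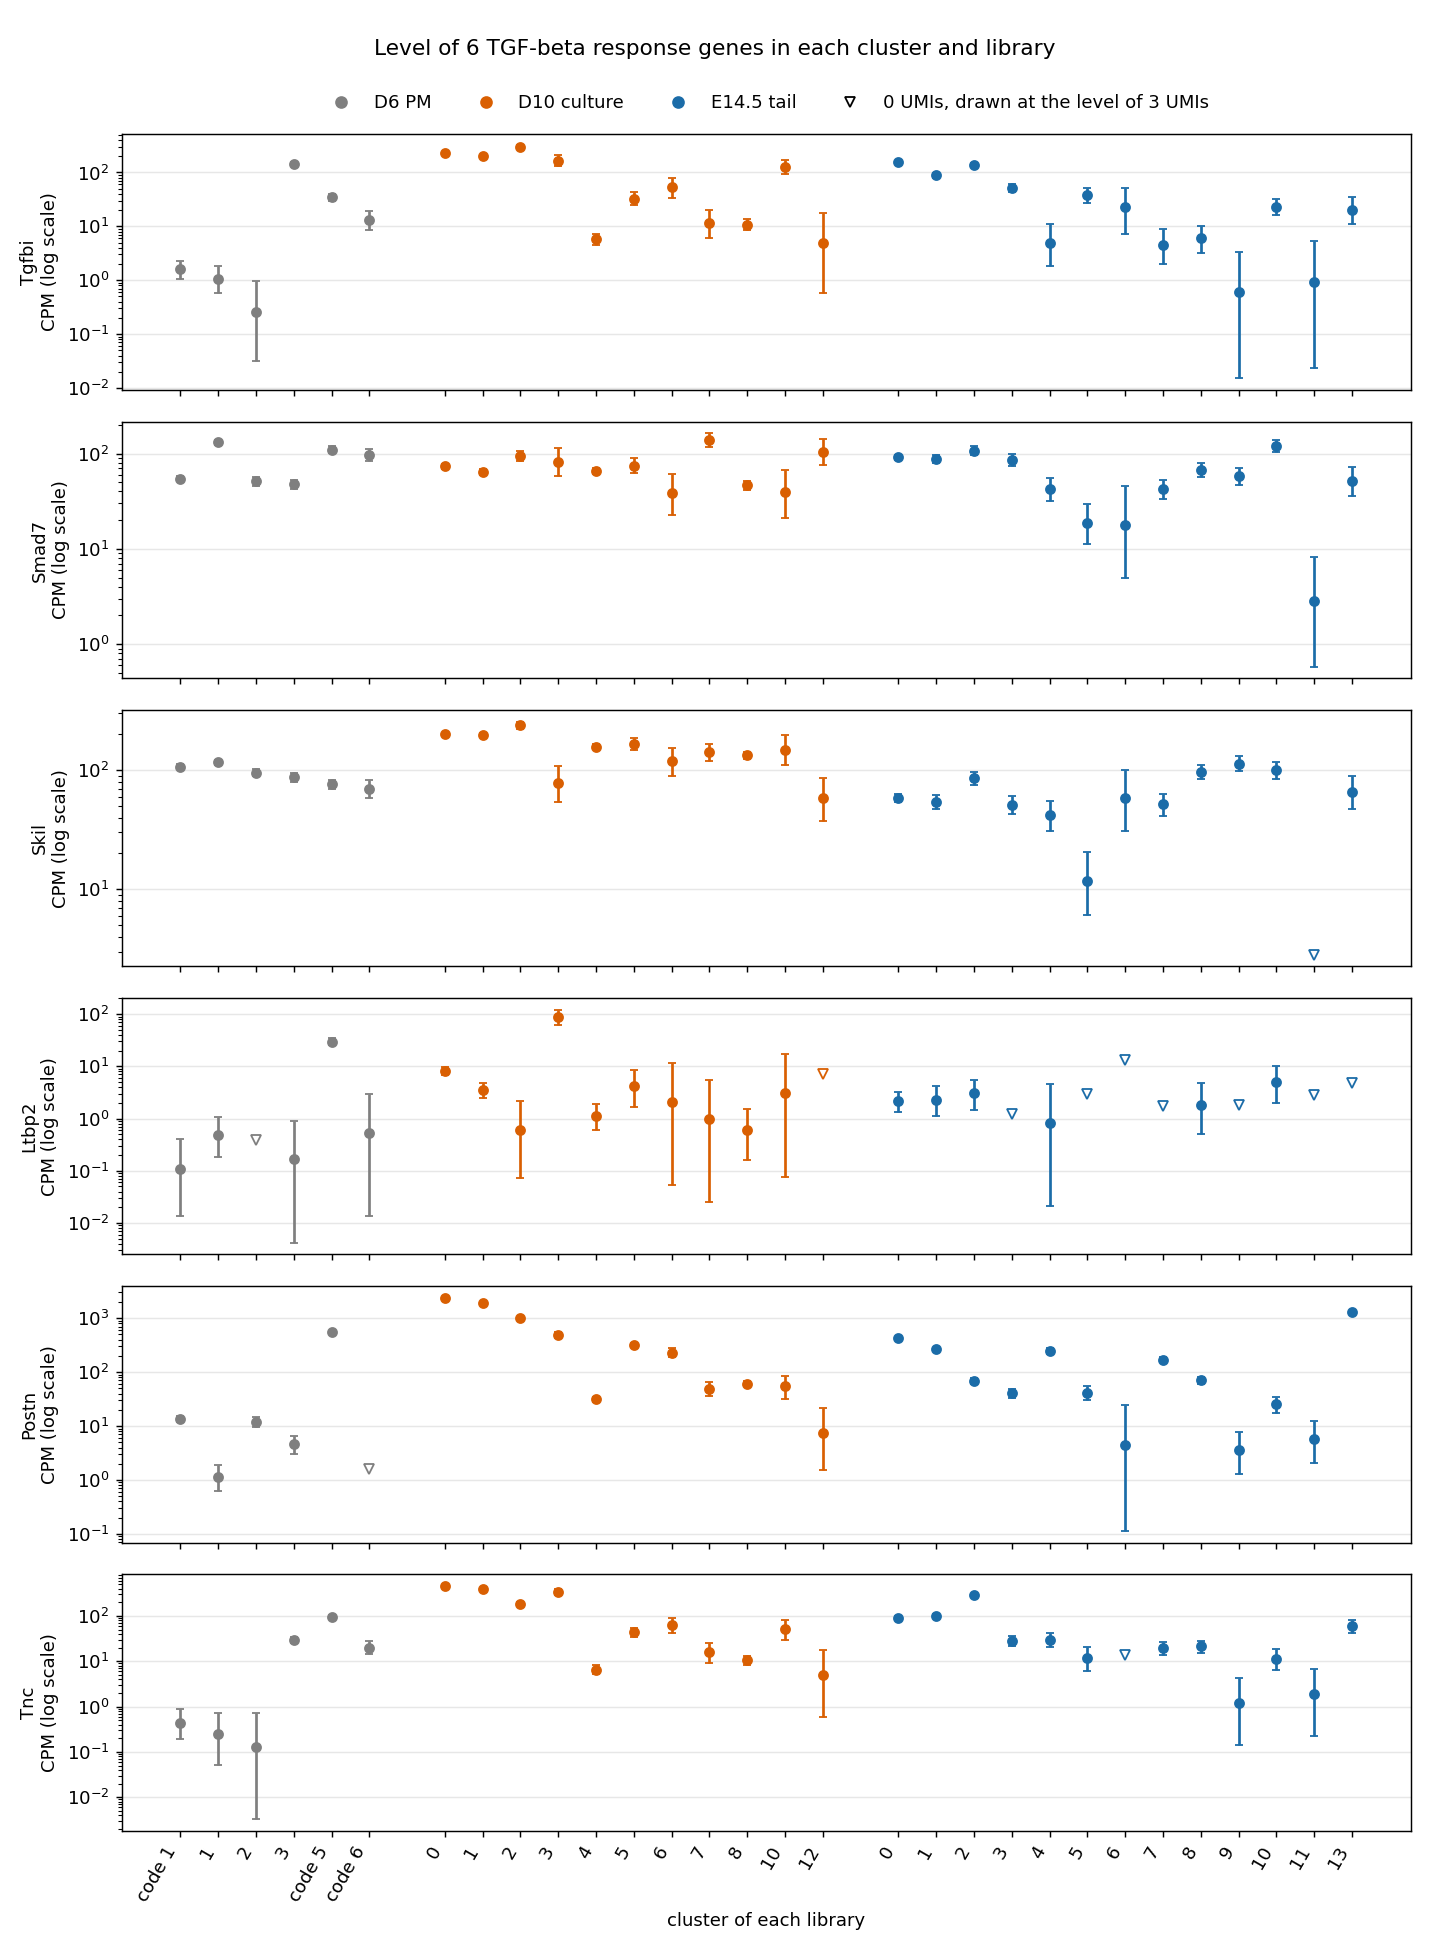
Level of each gene (CPM, log axis) in every cluster of at least 10 cells in the D6 PM, D10 culture and E14.5 tail libraries, with 95% Poisson intervals as bars and open triangles for clusters with no UMI, drawn at the level of 3 UMIs. Among D10 clusters of at least 50 cells, *Postn* spanned from 31.6 to 2363 CPM and *Smad7* from 38.1 to 138 CPM.

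The D6 signal of the matrix genes came from few cells. The cluster coded 5, 11.1% of D6 cells, held 89.7% of the *Postn* UMIs, 94.6% of the *Ltbp2* UMIs and 71.4% of the *Tnc* UMIs. Its levels were 562 CPM for *Postn* (543 to 581), 95.8 CPM for *Tnc* (88.1 to 104) and 29.5 CPM for *Ltbp2* (25.3 to 34.2). *Tgfbi* had another source: D6 cluster 3, 11.8% of cells, held 76.2% of its UMIs at 143 CPM (134 to 153), and code 5 held 17.8% at 34.4 CPM. *Smad7* and *Skil* were spread over all D6 clusters, from 47.4 CPM in cluster 3 to 131 CPM in cluster 1 for *Smad7*. *Skil* ran from 69.6 CPM in the cluster coded 6 to 116 CPM in cluster 1. The cluster coded 6 carried both erythroid and endothelial markers, with summed levels of 4991 and 1135 CPM. When D6 code 5 and D10 cluster 3 were left out, an alternative chosen after seeing the data, the whole-library D10 to D6 ratio was 146 for *Postn*, 47.6 for *Tnc*, 17.5 for *Ltbp2* and 6.67 for *Tgfbi*, against 1.73 for *Skil* and 0.920 for *Smad7*.

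In the D10 culture most UMIs of the matrix genes lay in clusters 0 and 1. *Postn* stood at 2363, 1875 and 992 CPM in clusters 0, 1 and 2, and clusters 0 and 1 held 61.0% and 31.2% of its UMIs. *Tnc* followed the same order at 447, 382 and 185 CPM, with cluster 3 at 335 CPM, and with 59.1% and 32.6% of UMIs in clusters 0 and 1. *Tgfbi* was instead highest in cluster 2, at 299 CPM, whereas clusters 0 and 1 stood at 229 and 202 CPM. *Smad7* and *Skil* were less concentrated, with cluster 4 holding 21.0% and 19.4% of their UMIs. *Ltbp2* was at 88.8 CPM (63.2 to 121) in cluster 3, against 8.20 CPM in cluster 0, and the 53 cells of cluster 3, 0.678% of the library, held 16.2% of its UMIs.

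To compare cells at equal depth, each cell was thinned to 3000 UMIs and shallower cells were left out. In D10 cluster 0, 89.8% of 2595 cells then had a *Postn* UMI, 55.7% a *Tnc* UMI, 44.1% a *Tgfbi* UMI, 43.7% a *Skil* UMI and 19.4% a *Smad7* UMI. Without thinning these shares were 93.2%, 63.9%, 59.5%, 60.6% and 30.5%. In D6 cluster 3 the thinned shares were 1.49% for *Postn*, 7.26% for *Tnc*, 31.4% for *Tgfbi*, 26.9% for *Skil* and 13.7% for *Smad7*. The tail clusters 5 and 11 were led by erythroid genes, and such cells should lack the matrix proteins. Their shares bear on free RNA in the tail library only, not in the D6 or D10 libraries. The 5 erythroid markers took 569222 and 349151 CPM of tail clusters 5 and 11, which left fewer of the 3000 UMIs for other genes. In cluster 11 the shares were 2.40% for *Postn*, 0.8% for *Tnc* and 1.60% for *Smad7*, and no UMI of *Tgfbi* or *Skil* was found in 125 thinned cells, which by a floor of 3 counts allows a share of up to 2.40% of cells with a UMI at this depth; before thinning the *Tgfbi* share was 0.781%. In cluster 5 (68 cells) they were 4.41% for *Postn* and *Smad7*, 2.94% for *Tgfbi* and *Skil*, and 1.47% for *Tnc*. The median depth before thinning was 12862 UMIs in tail cluster 5 and 8391.5 in tail cluster 11, against 4918.5 in D10 cluster 0 and 7709 in D6 cluster 3. Within the D6 library, the *Postn* share was 1.49% (exact interval 0.681% to 2.80%) in cluster 3 and 0 of 918 cells (up to 0.401%) in cluster 1, where 0.578% of cells had a *Postn* UMI before thinning.

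**Figure D2:**
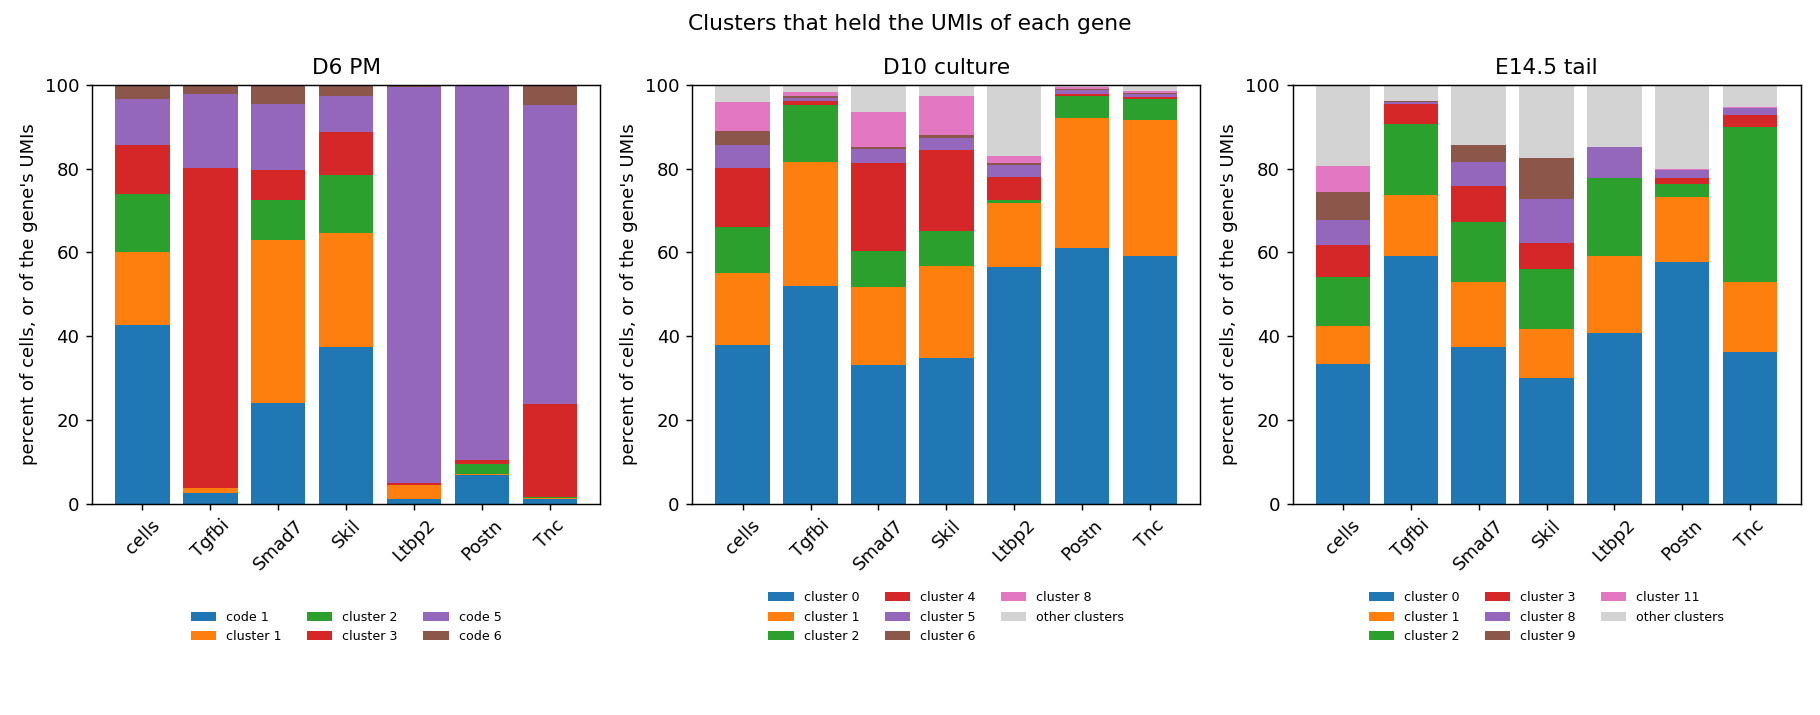
Percent of cells (first bar) and percent of each gene's UMIs (other bars) held by each of the 6 D6 clusters and by the 7 largest clusters of the other libraries, whose remaining clusters are pooled. The D6 code 5 band is far wider for *Postn* (89.7%) and *Ltbp2* (94.6%) than for cells (11.1%).

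The comparison of D10 cluster 0 with D6 cluster 3 set the main tendon and fibroblast cells against the mesoderm cells of the earlier culture. *Postn* was at 2363 CPM against 4.61 CPM, a ratio of 513 (355 to 772), and *Tnc* at 447 CPM against 29.0 CPM, a ratio of 15.4 (13.3 to 18.0). *Skil* was at 200 CPM against 87.7 CPM, a ratio of 2.28 (2.08 to 2.50), which dropped below the 2-fold threshold to 1.84 in cells thinned to equal depth. *Tgfbi* was already at 143 CPM in D6 cluster 3, and its ratio was 1.60 (1.48 to 1.72). *Smad7* was at 73.4 CPM against 47.4 CPM, a ratio of 1.55 (1.36 to 1.77). *Ltbp2* had 1 UMI in D6 cluster 3, so that its ratio of 49.8 spanned 8.79 to 1982 and was not tested. Of 8934 genes tested, 9.88% were called higher and 10.8% lower, and 3 of the 5 members tested were higher, of which *Postn* passed the filter only through D10. The median gene had a log2 ratio of -0.17.

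Cells with pluripotency-associated genes were present at both times, and their comparison (D10 cluster 4 against D6 cluster 1) set side by side cells with few tendon gene UMIs. *Smad7* was at 65.8 CPM against 131 CPM, a ratio of 0.504 (0.462 to 0.550), at the edge of the 2-fold threshold: it was 0.493 on totals without mitochondrial, ribosomal protein and haemoglobin genes, 0.478 after thinning and 0.491 when divided by the median ratio of all genes, but 0.541 when each cell counted equally, 0.507 without doublets and 0.503 without cells under 1000 genes. *Skil* was at 157 CPM against 116 CPM, a ratio of 1.35 (1.26 to 1.45). *Postn* was the member called, at 31.6 CPM against 1.15 CPM, with a ratio of 27.5 (16.2 to 50.8). It passed the filter only through D10, and the call was lost after thinning. At that depth 5.64% of D10 cluster 4 cells had a *Postn* UMI, below the 10% filter, and D6 cluster 1 had no *Postn* UMI. *Tnc* and *Tgfbi* were at 6.48 and 5.71 CPM in D10 cluster 4, and neither was found in enough cells to be tested. *Ltbp2* was at 1.11 CPM against 0.493 CPM, also untested. Of 9179 genes tested, 4.14% were higher and 3% lower.

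The matrix genes in D10 cluster 4 moved with fibroblast genes and with doublets. Relative to D10 cluster 0, the level in cluster 4 was 1.34% for *Postn*, 1.45% for *Tnc* and 2.50% for *Tgfbi*, near the 1.5% for *Col1a1*, 1.62% for *Col3a1* and 2.93% for *Scx*. The levels of *Smad7* and *Skil* were 89.7% and 78.8% of those in cluster 0. All 6 fibroblast genes had UMIs in D10 cluster 4, summing to 106 CPM against 20.7 CPM in D6 cluster 1. The 26 barcodes of cluster 4 called as doublets, 2.39% of its cells, held 59.6% of its *Postn* UMIs, 53.9% of its *Tnc* UMIs and 41.8% of its *Tgfbi* UMIs, against 2.72% for *Smad7* and 3.47% for *Skil*. Without them *Postn* was at 13.2 CPM and its ratio to D6 cluster 1 was 12.7. The part of RNA from other cells in what remained was not tested.

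**Figure D3:**
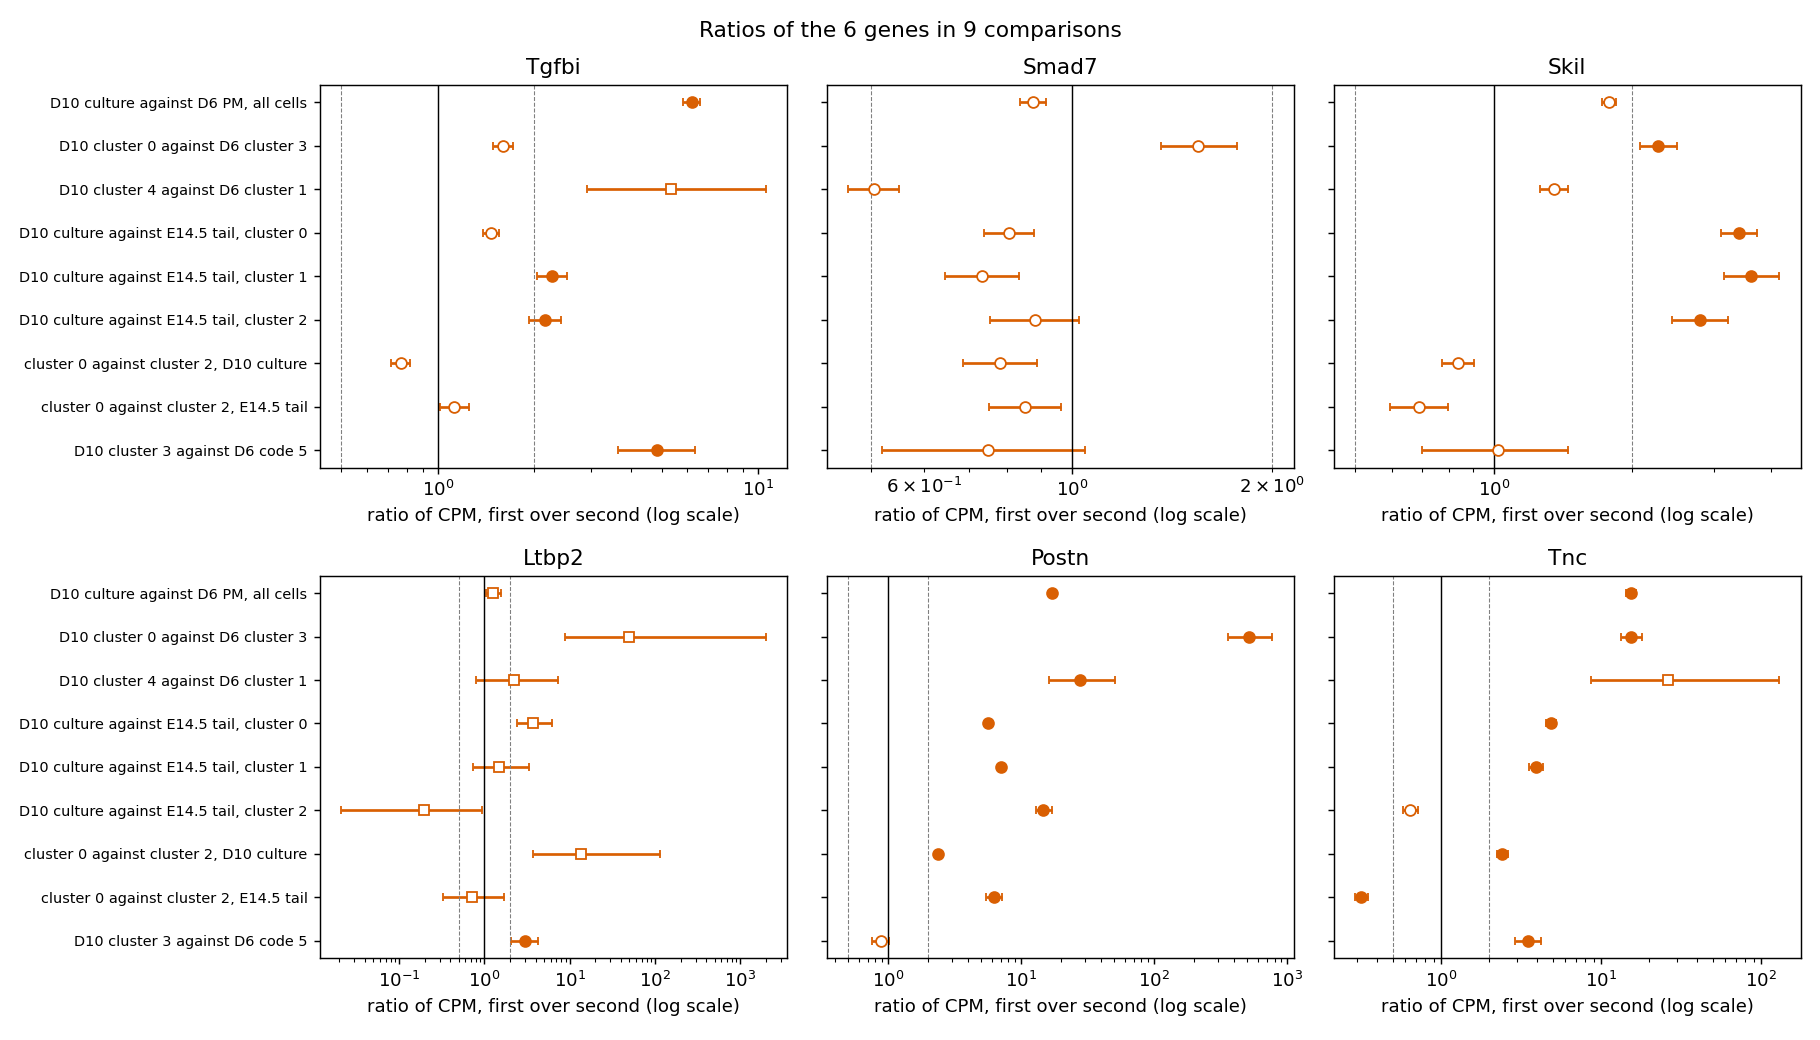
CPM ratio of each gene (log axis) in each comparison with exact 95% intervals, where filled circles are genes past the 2-fold threshold, open circles are tested genes within it, squares are genes found in too few cells, and dashed lines mark ratios of 0.5 and 2. *Postn* ranged from 0.876 in D10 cluster 3 against D6 code 5 to 513 in D10 cluster 0 against D6 cluster 3.

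The fibroblast-marker clusters of both times were compared as an alternative chosen after seeing the data. D10 cluster 3 differed from D6 code 5 in *Tgfbi*, at 166 CPM against 34.4 CPM with a ratio of 4.83 (3.65 to 6.34) that was 3.09 when each cell counted equally, and in *Tnc*, at 335 CPM against 95.8 CPM with a ratio of 3.50 (2.89 to 4.20). *Ltbp2* was at 88.8 CPM against 29.5 CPM, a ratio of 3.01 (2.07 to 4.28) that fell to 1.64 after thinning and then missed the threshold. *Postn* was at 492 CPM against 562 CPM, a ratio of 0.876 (0.760 to 1.01). The ratios of *Smad7*, 0.747 (0.519 to 1.05), and *Skil*, 1.02 (0.697 to 1.45), had intervals that included 1. Of 8481 genes tested, 8.16% were higher and 8.68% lower at D10, and 3 of 6 members were higher. White blood cell markers (*Ptprc*, *Tyrobp*, *Fcer1g*, *C1qb*) moved with these differences: they summed to 881 CPM in D10 cluster 3, with 3 of 4 genes found and *C1qb* at 0 UMIs, against 152 CPM in D6 code 5, with all 4 found, and their part was not tested. The 53 cells of D10 cluster 3 limit the precision of each value.

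The culture was then set against the tail, cluster by matching cluster, which addressed how far cells exposed to TGFβ1 in culture resemble native cells. *Postn* was higher in culture in each of clusters 0, 1 and 2. Its levels in these tail clusters were 422, 267 and 67.7 CPM, and the culture to tail ratios were 5.60 (5.42 to 5.78), 7.04 (6.63 to 7.47) and 14.7 (12.8 to 16.9). *Skil* was also higher in all 3, with tail levels of 58.7, 54.3 and 85.3 CPM and ratios of 3.40 (3.12 to 3.72), 3.63 (3.17 to 4.17) and 2.80 (2.44 to 3.22). In cells thinned to equal depth, 89.8%, 85.7% and 68.5% of culture cells had a *Postn* UMI, against 37.3%, 30.1% and 9.58% in the tail. For *Scx* these shares were 91.2%, 92.6% and 86.6% against 37.5%, 39.8% and 62.5%, with CPM ratios of 1.64, 1.62 and 0.972. How far the culture to tail ratios of any gene reflect the share of cells or the level per cell was not tested.

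*Tnc* differed between clusters. In the tail it was highest in cluster 2, at 286 CPM, while clusters 0 and 1 had 91.3 and 97.7 CPM; in culture cluster 2 was the lowest of the 3. Its culture to tail ratios in clusters 0, 1 and 2 were 4.89 (4.57 to 5.25), 3.91 (3.54 to 4.33) and 0.645 (0.582 to 0.715). *Tgfbi* was at 156, 88.9 and 138 CPM in tail clusters 0, 1 and 2, and its ratios were 1.47 (1.38 to 1.56), 2.27 (2.03 to 2.53) and 2.16 (1.93 to 2.42), the last 2 past the threshold.

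*Smad7* stayed within 2-fold in all 3 clusters, at ratios of 0.806 (0.739 to 0.878), 0.733 (0.646 to 0.833) and 0.879 (0.753 to 1.03). *Ltbp2* was not tested in any of them; it was at 8.20 CPM in culture and 2.17 CPM in the tail for cluster 0, a ratio of 3.77 (2.39 to 6.22), at 3.46 and 2.31 CPM for cluster 1, and had 2 and 10 UMIs for cluster 2. The background of higher and lower calls ran, in the same order of clusters, 5.76% and 13.6%, 5.5% and 13.6%, and 4.86% and 13%. Of the 5 members tested, 3, 4 and 3 were higher and none lower. The median log2 ratio of all genes was -0.20, -0.18 and -0.18, so that relative to the median gene the *Smad7* ratios were 0.928, 0.831 and 0.995 and those of *Skil* 3.92, 4.11 and 3.17. The 5 erythroid markers, haemoglobin genes included, summed to 1015, 5667 and 4398 CPM in tail clusters 0, 1 and 2. On totals without mitochondrial, ribosomal protein and haemoglobin genes, the *Postn* ratios were 5.46, 6.86 and 14.4 and those of *Tnc* 4.77, 3.81 and 0.634.

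Tendon-marker cells were also compared with cartilage-marker cells within each library. In the culture, *Postn* and *Tnc* were higher in cluster 0 than in cluster 2, with ratios of 2.38 (2.30 to 2.47) and 2.42 (2.23 to 2.63), and *Tgfbi*, *Smad7* and *Skil* lay between 0.765 and 0.836. In the tail, *Postn* was higher in cluster 0 with a ratio of 6.23 (5.45 to 7.16), *Tnc* was lower with a ratio of 0.319 (0.291 to 0.349), and *Tgfbi* had a ratio of 1.13 (1.01 to 1.25). The background of higher and lower calls was 3.36% and 1.54% in the culture, and 6.28% and 3.65% in the tail. *Ltbp2* was not tested in either; its culture level of 8.20 CPM in cluster 0 stood beside 0.601 CPM in cluster 2, from 2 UMIs. The clusters themselves had been defined on gene expression, the members included, so these differences are a description.

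**Figure D4:**
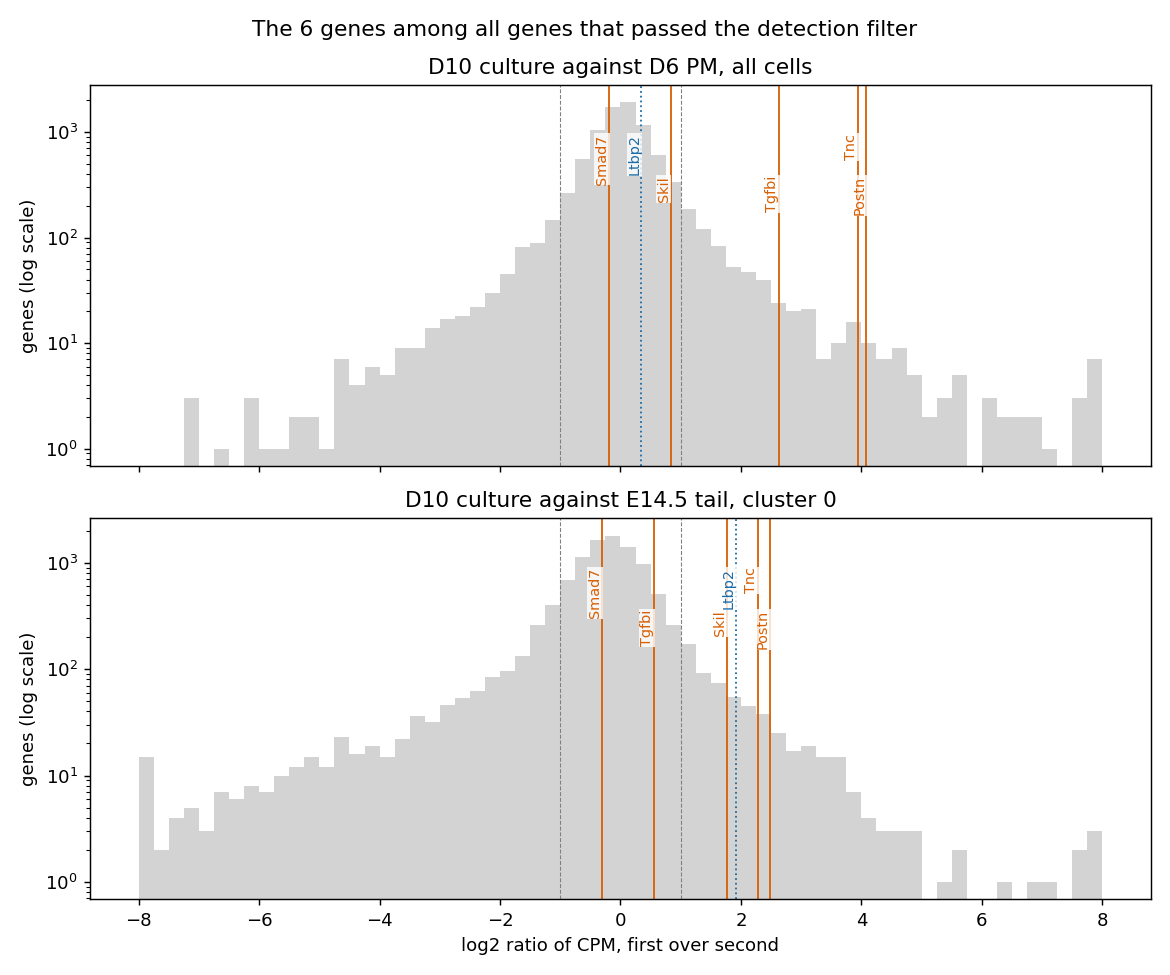
Histograms (number of genes on a log axis, dashed lines at 2-fold) of log2 CPM ratios over all genes that passed the filter on detection in 2 comparisons, with the members as vertical lines (dotted where they failed the filter). Values beyond 8 in size are drawn at the edge and genes with no UMI in 1 group are left out; *Postn* lies far to the right of the bulk in both, at ratios of 16.9 and 5.60.

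Some tail clusters outside cartilage and tendon also carried the members. Cluster 13 (38 cells), led by the glial and neural crest genes *Sox10*, *Foxd3* and *Cdh19*, had *Postn* at 1278 CPM (1191 to 1368), above the 422 CPM of tail cluster 0, and held 11% of the tail's *Postn* UMIs in 1.85% of its cells. After thinning, 94.6% of its cells had a *Postn* UMI, whereas *Tgfbi* and *Ltbp2* were at 20.4 CPM and 0 UMIs. *Smad7* had its highest tail level in cluster 10, which carried endothelial genes, at 120 CPM (103 to 139). This interval overlapped that of the cartilage-marker cluster 2, at 107 CPM (96.2 to 119). *Skil* had its highest tail level in cluster 9, which carried neural genes, at 113 CPM (97.7 to 130). This overlapped the interval of cluster 10, at 99.5 CPM (83.8 to 117). In cluster 9 *Tgfbi* was at 0.593 CPM and *Tnc* at 1.19 CPM.

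Ordered over the 30 clusters of at least 10 cells, the members gave different series. *Skil* had its 9 highest levels in D10 culture clusters, from 239 CPM in cluster 2 to 119 CPM in cluster 6, while D10 clusters 3 and 12 stood at 77.4 and 58.3 CPM. Only 4 of the 29 neighbouring pairs in this order differed beyond counting error. For *Smad7* the order mixed all 3 libraries, and 2 of 29 neighbouring pairs differed. The number of such pairs was 11 for *Postn*, which had the most UMIs, 6 for *Tgfbi*, 5 for *Tnc* and 2 for *Ltbp2*, and it depends on how many UMIs a gene has.

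Across the 27 groups of at least 50 cells, which share libraries and depth, the genes most like each member by Pearson's r of log2(CPM + 10) were ranked among 8459 genes. *Emilin1* (r = 0.929) and *Oaf* (r = 0.919) were closest to *Tgfbi*, *Oaf* (r = 0.909) and *Col8a1* (r = 0.908) to *Tnc*, and *Col8a1* (r = 0.910) and *Thbs2* (r = 0.905) to *Postn*. *Dnajc3* (r = 0.869) was closest to *Smad7*, *Ndufaf3* (r = 0.903) to *Skil*, and *Ptprv* (r = 0.967) to *Ltbp2*. Among the members, r was 0.876 for *Tgfbi* and *Tnc*, 0.852 for *Postn* and *Tnc*, 0.620 for *Skil* and *Smad7*, and 0.221 for *Smad7* and *Tgfbi*. *Ltbp2* was above 10 CPM only in D10 cluster 3 and D6 code 5, and its Spearman's rho with *Ptprv* was 0.687. In the erythroid tail clusters 5 and 11 *Smad7* was at 18.7 and 2.82 CPM and *Skil* at 11.8 and 0 CPM. How far these groups set the r of *Skil* and *Smad7* was not tested. All these values are descriptions and genes of 1 library are not independent.

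Within D10 cluster 0, *Postn* and *Tnc* UMIs were found together in 48.8% of cells thinned to equal depth (46.9% to 50.8%), against 50% if the genes were found independently. *Tgfbi* and *Tnc* were found together in 26.4% (24.7% to 28.1%) against 24.5%. The median cell had 6 *Postn* UMIs and the cell with the most had 37.

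Promoter sequences are given for *Tgfbi*, *Postn* and *Tnc*, the members that were higher together at D10. They are the 250 bases before the gene start in RefSeq annotation of GRCm38.p6, a build not stated for the count tables. Windows were matched for *Tgfbi*, *Ltbp2*, *Postn* and *Tnc* only, and no window of *Skil* or *Smad7* was searched as a member. CAGAC, the Smad-binding core, was searched on both strands, as was the AP-1 motif TGANTCA; neither motif holds the other. Capitals mark CAGAC or its reverse complement GTCTG. The regions were chr13:56609336-56609585 (+ strand) for *Tgfbi*, chr3:54360857-54361106 (+ strand) for *Postn* and chr4:64047016-64047265 (- strand) for *Tnc*, each printed 5′ to 3′ toward the gene.
Tgfbi: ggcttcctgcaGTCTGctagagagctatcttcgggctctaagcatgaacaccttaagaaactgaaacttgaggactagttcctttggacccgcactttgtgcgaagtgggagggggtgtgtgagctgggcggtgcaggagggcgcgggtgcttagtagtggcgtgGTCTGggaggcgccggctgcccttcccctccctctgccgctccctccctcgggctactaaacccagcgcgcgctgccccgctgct
Postn: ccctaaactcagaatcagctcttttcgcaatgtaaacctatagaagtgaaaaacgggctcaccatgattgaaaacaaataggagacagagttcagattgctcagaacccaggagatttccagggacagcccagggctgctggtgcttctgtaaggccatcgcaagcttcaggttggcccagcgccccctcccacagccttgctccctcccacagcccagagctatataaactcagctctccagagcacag
Tnc: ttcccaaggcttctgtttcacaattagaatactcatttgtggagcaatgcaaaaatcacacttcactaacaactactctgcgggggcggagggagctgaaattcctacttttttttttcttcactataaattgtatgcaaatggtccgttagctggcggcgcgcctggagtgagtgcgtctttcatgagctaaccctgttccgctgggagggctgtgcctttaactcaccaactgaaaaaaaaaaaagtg
The *Tgfbi* window held 2 matches to CAGAC, 85 and 239 bases before the start, the *Ltbp2* window (not shown) also held 2, and the *Postn* and *Tnc* windows held none. RefSeq lists another start for each of *Postn* and *Tnc*, and the windows before those starts (not shown) held 1 match to CAGAC each. No window held TGANTCA. Of 32851 promoter windows of the same length, 42.2% held CAGAC and 6.75% TGANTCA. A match is a description of the letters, and none bears on whether a factor binds.

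A list of 42 other TGFβ pathway genes was counted beside the members. Over whole libraries 37 were tested, 19 were higher and 4 lower at D10 than at D6 (7.79% and 5.86% over all genes), with a median log2 ratio of 1.0 against 0.03 over all genes. Of the 19, 9 passed the filter only through D10, where they were high, and of the 4, 2 only through D6, so that these had to differ. In D10 cluster 0 against D6 cluster 3, 39 were tested, 22 were higher and 3 lower (9.88% and 10.8% over all genes), and the median was 2.10 against -0.17. Here 13 of the 22 passed only through D10 and all 3 lower genes only through D6, so the counts and medians are a description, and 22 of the 42 were found in at least 10% of cells of both groups. By role, 6 of 8 genes of ligands and their activation were higher, 2 of 4 receptors tested were higher and 1 lower, 0 of 3 Smads tested were higher and 1 lower, and 2 of 7 feedback genes and co-repressors and 12 of 17 other targets tested were higher.

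Among the ligands and receptors in this comparison, *Tgfb1* was at 61.5 CPM against 2.96 CPM, and *Tgfb3* at 51.7 CPM against 4.77 CPM. The signaling receptor *Tgfbr2* was at 66.9 CPM against 15.6 CPM, whereas the co-receptor *Tgfbr3* was lower, at 3.86 CPM against 26.8 CPM. *Smad3*, a receptor-activated Smad, was lower at 12.7 CPM against 36.0 CPM. *Pmepa1*, a target that limits Smad activation, was at 839 CPM against 30.1 CPM, a ratio of 27.9. *Cdkn2b*, a cell cycle inhibitor, was at 115 CPM against 1.15 CPM, a ratio of 99.4 that rests on few D6 UMIs. At their D6 levels *Tgfb1*, *Tgfb3* and *Cdkn2b* could pass the filter only through D10. *Tgfbr3* and *Smad3* passed it only through D6. These genes therefore had to differ, and the values are a description.

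In D10 cluster 4 against D6 cluster 1, 23 of the 42 were tested, 3 were higher and 2 lower (4.14% and 3% over all genes), with a median log2 ratio of -0.15 against 0.04. Against the tail, 11 were higher and 9 lower of the 41 tested among cluster 0 cells, with 11 and 6 of 42 for cluster 1 and 6 and 10 of 39 for cluster 2. Over all genes 5.76%, 5.5% and 4.86% were higher and 13.6%, 13.6% and 13% lower, and the medians of -0.17, -0.11 and 0.00 stood beside -0.20, -0.18 and -0.18 over all genes. *Pmepa1* was 4.38-fold, 4.13-fold and 5.82-fold higher in culture in clusters 0, 1 and 2, whereas *Junb* was lower in all 3. Cluster 0 against cluster 2 gave 6 higher and 2 lower of 35 in culture (3.36% and 1.54% over all genes) and 7 higher and 4 lower of 39 in the tail (6.28% and 3.65%). The medians were 0.12 and 0.06, against -0.02 and -0.01 over all genes. D10 cluster 3 against D6 code 5 gave 9 higher and 2 lower of 37 (8.16% and 8.68% over all genes) and a median of 0.39 against -0.03, with *Pmepa1* at 1009 CPM against 241 CPM. In these comparisons, too, some called genes passed the filter only through the group where they were high: 2 of 5 in D10 cluster 4 against D6 cluster 1, 8 of 20, 3 of 17 and 6 of 16 against the tail in clusters 0, 1 and 2, 3 of 8 and 1 of 11 in cluster 0 against cluster 2 of the culture and the tail, and 2 of 11 in D10 cluster 3 against D6 code 5.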

How the data were processed

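Single-cell libraries were made by the study with 10x Genomics 3′ chemistry from D6 PM cells, D10 culture cells and E14.5 tail cells, 1 library each. Each deposited table gives unnormalized UMI counts for every cell, beside the authors' cluster code, made with Cell Ranger (multi-mapping reads ignored) and clustered with Seurat 3.0 after filters on mitochondrial share and on depth; the genome build is not given in the sources used here. Cluster codes were matched to the study's cluster numbers by the share of cells with a UMI, and D6 codes 1, 5 and 6 were kept as codes. These numbers follow the study's marker tables; for clusters 2, 3, 4 and 8 they differ from the numbering of its table of cluster sizes, which follows the order of the codes. Codes past the marker table were numbered 11 to 13 in code order. Ignoring multi-mapping reads can lower genes with near-identical copies, and 3′ reads do not separate isoforms.

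From the counts, CPM of summed UMIs was computed per cluster and library, with exact Poisson, conditional binomial and Clopper-Pearson 95% intervals. Genes were tested where a UMI was found in at least 10% of cells of either group and called at 2-fold; with no replicates, this rule stands in for a test. Shares of cells used cells thinned to 3000 UMIs, leaving out 1006, 1157 and 100 shallower cells of the D6 PM, D10 culture and tail libraries. Scrublet in Scanpy 1.11.5, with 6% doublets expected, marked 1.36%, 1.48% and 0.439% of cells, which were kept and left out as an alternative. The call rule was tested on simulated counts from at most 400 cells per group: in D10 culture against D6 PM all 200 genes changed 4-fold were recovered and 9 of 8697 unchanged genes were called. All 200 were also recovered in the other 3 simulated comparisons, with false calls in 14 of 8447 genes for D10 cluster 0 against D6 cluster 3, 21 of 10482 for culture against tail in cluster 0, and 5 of 6788 for cluster 0 against cluster 2 of the culture. Smaller changes were not simulated. The changed genes were drawn from genes likely to be detected, and 4-fold lay well past the 2-fold threshold, so recovery was close to fixed in advance. Counts had Poisson error alone, with no spread between cells other than depth and none between cultures or libraries. The false calls therefore do not describe the error of data with 1 library per group. Analyses used Python 3.11.15, NumPy 2.4.6, SciPy 1.17.1 and Matplotlib 3.10.9. The members, the pathway list and the marker lists were chosen with earlier results of these data known. Named genes were the members, the pathway genes counted by role with a few examples, and the 5 genes of highest r with each member.

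Alternatives were thresholds of 1.5-fold and 4-fold, no filter on detection, other totals, the mean of each cell's CPM, thinning to 3000 UMIs, division by the median ratio, leaving out doublets, leaving out cells under 1000 genes, and shares thinned to 5000 UMIs. The comparison of D10 cluster 3 with D6 code 5, and leaving both out, were added after seeing the data.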

Additional observations from a re-analysis of the deposited data

Results flagged for a closer look

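*Tnc* went opposite ways in the culture and the tail. It was 2.42-fold higher in cluster 0 than in cluster 2 of the culture, and its ratio was 0.319 for the same clusters of the tail. In culture against tail its ratio was 4.89 in cluster 0 and 3.91 in cluster 1, but 0.645 in cluster 2. *Tgfbi* had a ratio of 0.765 for cluster 0 against cluster 2 in the culture and 1.13 in the tail. *Ltbp2*, which was below the filter on detection, had a culture to tail ratio of 3.77 in cluster 0 and of 0.199 in cluster 2, the latter from 2 UMIs against 10. *Smad7* had a ratio of 1.55 in D10 cluster 0 against D6 cluster 3 and of 0.504 in D10 cluster 4 against D6 cluster 1. In each of these pairs the ratios lay on opposite sides of 1 with counting intervals that excluded 1. With 1 library per group, none of these differences was tested.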

How the results depend on the processing

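Replicates could not be left out in turn, since each group had 1 library. No paired analysis was possible because no group had more than 1 library. The counts of members called higher in 9 comparisons were within 1.5 times the main count in 75 of 82 alternative values. The exceptions were D10 cluster 0 against D6 cluster 3 at 1.5-fold (5 members), D10 cluster 4 against D6 cluster 1 after thinning (0) and with no filter on detection (4), and, at 4-fold, culture against tail in cluster 1 (1) and cluster 2 (1), cluster 0 against cluster 2 in culture (0), and D10 cluster 3 against D6 code 5 (1). These counts moved through the threshold, the filter or fewer UMIs. Lower calls were left out of these counts, and some of them moved too. In D10 cluster 4 against D6 cluster 1, *Smad7* was called lower after thinning (0.478) and after division by the median ratio (0.491). It was also called lower on totals without mitochondrial, ribosomal protein and haemoglobin genes (0.493). The lower call of *Tnc* in tail cluster 0 against cluster 2, at a ratio of 0.319, did not pass 4-fold. Of 326 alternative ratios, 273 stayed within their counting interval, 53 moved and no called ratio changed direction. Shares moved in 80 of 96 cases with the thinning depth. The 5 closest genes by Spearman's rho were not the same as those by Pearson's r for any member. The 2 lists shared 4 genes for *Postn*, 3 each for *Tgfbi* and *Smad7*, 1 each for *Skil* and *Tnc*, and 0 for *Ltbp2*. *Ltbp2* levels rest on few UMIs.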
